A study of Homo sapiens with 15 samples.

Results

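The 9 genes described here belong to the pericellular proteolysis system and were followed across 15 RNA-seq libraries of A375 cells, an established human melanoma line with mutant, constitutively active BRAF. The members were chosen by name, with earlier results of these data known. They comprise the plasminogen activators PLAT and PLAU, the urokinase receptor PLAUR, the inhibitor SERPINE2 and the matrix metalloproteinases MMP1, MMP2, MMP9, MMP10 and MMP14. All 9 were present among the 18322 genes of the deposited table, and all 9 passed the filter on low values. The 5 groups had 3 libraries each. They were parental A375 carrying MYC T58A, a stabilized MYC mutant (MYC T58A), resistant cells labelled shMYC1, resistant cells labelled shMYC2, a clonal population of A375 resistant to the BRAF inhibitor PLX4720 (Resistant), and A375 as the parental line (Parental). The hairpin labels name MYC as their target. The series calls the libraries biological triplicates, the resistant cells come from a single clonal population, and the sources used here state neither drug exposure at harvest nor the vector or promoter of MYC T58A. The title of the series concerns MYC in the evolution of drug resistance, and the 4 main comparisons set Resistant and MYC T58A against Parental, and each hairpin label against Resistant.

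Plasminogen is a circulating zymogen that PLAT (tissue-type activator) and PLAU (urokinase) cleave to plasmin, a broad serine protease. PLAUR holds urokinase at the cell surface, and the serpin SERPINE2 (protease nexin) can block the activators. Plasmin can activate secreted metalloproteinase zymogens, and the membrane-anchored MMP14, together with TIMP2, activates the gelatinase MMP2, so the gene families act in sequence on the matrix around tumour cells.

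Promoter windows of 250 bases before to 50 bases after a transcription start were matched by symbol for 5 of the 9 members (SERPINE2, PLAU, PLAUR, MMP10 and MMP14; 7 windows) in RefSeq on GRCh38.p14; PLAT, MMP1, MMP2 and MMP9 are named only. The windows of 4 genes are shown because SERPINE2, MMP10 and MMP14 had the widest ranges over the groups among the matched members and PLAUR the narrowest. They read 5′ to 3′ on the minus strand of the gene (plus strand for MMP14), and capitals mark matches to the AP-1 motif TGANTCA and to the E-boxes CACGTG and CATGTG on either strand (CATGTG reads CACATG on the other strand).
SERPINE2, chr2:224031429-224031728, minus strand: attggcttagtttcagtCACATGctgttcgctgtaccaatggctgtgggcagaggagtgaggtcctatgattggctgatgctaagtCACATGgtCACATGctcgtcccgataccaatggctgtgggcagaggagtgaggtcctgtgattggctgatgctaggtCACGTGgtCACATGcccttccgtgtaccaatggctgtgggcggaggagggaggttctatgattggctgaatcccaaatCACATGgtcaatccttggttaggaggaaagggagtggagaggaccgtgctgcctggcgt
MMP10, chr11:102780579-102780878, minus strand: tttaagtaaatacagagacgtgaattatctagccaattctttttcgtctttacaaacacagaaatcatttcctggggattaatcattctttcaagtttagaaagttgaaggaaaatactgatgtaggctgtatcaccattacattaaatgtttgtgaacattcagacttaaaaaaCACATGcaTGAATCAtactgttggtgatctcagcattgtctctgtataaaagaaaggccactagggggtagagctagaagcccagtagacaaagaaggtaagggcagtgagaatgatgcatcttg
MMP14, chr14:22836335-22836634, plus strand: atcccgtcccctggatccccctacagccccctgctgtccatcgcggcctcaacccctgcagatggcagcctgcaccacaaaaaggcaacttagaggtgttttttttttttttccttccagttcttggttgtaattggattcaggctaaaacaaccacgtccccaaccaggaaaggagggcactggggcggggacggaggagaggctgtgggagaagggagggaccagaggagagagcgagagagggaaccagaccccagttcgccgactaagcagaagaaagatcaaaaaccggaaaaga
PLAUR, chr19:43670120-43670419, minus strand: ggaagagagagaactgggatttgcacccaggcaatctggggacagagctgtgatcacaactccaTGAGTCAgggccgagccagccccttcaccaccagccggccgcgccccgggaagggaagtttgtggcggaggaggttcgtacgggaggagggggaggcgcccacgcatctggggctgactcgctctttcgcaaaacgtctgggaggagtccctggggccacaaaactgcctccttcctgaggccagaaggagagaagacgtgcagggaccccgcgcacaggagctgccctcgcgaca
The SERPINE2 window, the first of its 2 in the table, held 1 CACGTG at -87 and 5 CACATG at -233, -164, -156, -79 and -9, counted from the transcription start to the first base of the match. In the MMP10 window, a CACATG at -75 lay 2 bases upstream of the AP-1 match at -67, and a TATAAA followed at -31. PLAUR had an AP-1 match at -186 and CTTCCT, the reverse complement of AGGAAG, the 1 form of the ETS motif that was searched, at -15. The MMP14 window held none of the 5 motifs searched, and AGGAAG at -221 of 1 PLAU window was the only other match. Among 35116 RefSeq promoters, TGANTCA was present in 7.71%, CACGTG in 7.26%, CATGTG in 11.1%, AGGAAG in 33.6% and TATAAA in 11.5%. These are matches of letters, and no binding was measured.

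Values are normalized reads, that is, reads scaled by each library's size factor. The libraries held 24222192 to 30399644 reads in genes. MYC averaged 3511 ± 94.4 normalized reads in MYC T58A, 486 ± 29.5 in the shMYC1 label, 7817 ± 259.8 in the shMYC2 label, 302 ± 28.1 in Resistant and 423 ± 11.9 in Parental (SD, n = 3 each). The libraries of both hairpin labels (the shMYC1 label and the shMYC2 label) thus stood above Resistant for the gene they name, and these groups are called by their labels throughout. The number of genes of the table at 0 was 1636 to 1694 in the libraries labelled shMYC2, against 296 to 665 in the others. The labelled cell type, melanocyte, was checked on 13 markers, of which 9 were in the table and TYR, MLANA, SLC45A2 and TRPM1 were not analysed here. The summed level of the 9 was 3770 to 4153 in MYC T58A, 13360 to 15780 in the shMYC1 label, 801 to 865 in the shMYC2 label, 4212 to 4588 in Resistant and 7160 to 7451 in Parental. SOX10, a transcription factor of the melanocyte lineage, was at 9.14, 11890, 19.5, 7.50 and 5282 normalized reads in the same order of groups. MITF, the regulator of pigment genes, followed another order, with 3592, 1620, 173, 3748 and 1509. DCT and TYRP1, enzymes of melanin synthesis, rose in MYC T58A against Parental (78.6 against 1.04 and 60.3 against 3.81, adjusted p = 3.41e-07 and 5.76e-06, limma). Most of the 9 markers went the other way there. At an adjusted p under 0.05 (limma), 3 rose and 6 fell, beside 30.1% and 33.7% of all tested genes. Those that fell included PMEL (2.97 against 22.4) and S100B (1.63 against 104). Fibroblast markers summed to 806 to 870 in MYC T58A, 618 to 673 in the shMYC1 label, 2785 to 2834 in the shMYC2 label, 5353 to 5605 in Resistant and 704 to 800 in Parental, over 11 genes. Different genes carried the 2 highest sums, so they do not grade the list as a whole. THY1 averaged 1950 in the shMYC2 label and 2.44 in Resistant. LUM averaged 3.86 in the shMYC2 label and 3051 in Resistant, where ACTA2 averaged 1367. The part of these markers in the results below was not tested.

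Most members fell in MYC T58A cells. In MYC T58A against Parental, 8 of 9 members passed limma's test at an adjusted p under 0.05, where 63.8% of 17012 tested genes passed. Of these members 2 were higher (MMP1 and MMP10), beside 30.1% of all genes, and 6 lower, beside 33.7%. The median size of the members' log2 difference was 2.86, beside 0.422 over all tested genes, and 7 of the 9 differed by at least 1, as did 20.5% of all genes. Because the members were chosen with earlier results known, such shares and sizes, here and below, are descriptive and do not test the gene family. In Resistant against Parental, 5 of 9 passed, a share near the 51.6% of all genes. MMP2 was higher, as were 27.2% of all genes, and the 4 genes PLAT, SERPINE2, MMP10 and MMP14 were lower, as were 24.4%. The median size was 0.693 beside 0.307, and 3 of the 9 differed by at least 1, as did 14.8% of all genes. Both comparisons use the same Parental libraries.

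In the libraries labelled shMYC1 against Resistant, 8 of 9 members passed, beside 57.1% of all genes. PLAT, PLAUR, SERPINE2 and MMP14 were higher (27% of all genes were) and PLAU, MMP1, MMP2 and MMP9 lower (30.1% of all genes were), and 5 of the 9 differed by at least 1, as did 17.3% of all genes. In those labelled shMYC2, 8 of 9 passed, beside 79.2% of all genes. PLAT, PLAU, PLAUR and MMP14 were higher (36.2% of all genes were) and SERPINE2, MMP2, MMP9 and MMP10 lower (43% of all genes were), and 7 of the 9 differed by at least 1, as did 39.2% of all genes. The median size of the members' difference was 1.87 for the shMYC1 label, beside 0.348 over all genes, and 2.36 for the shMYC2 label, beside 0.724. The 2 comparisons share the Resistant libraries. Over all genes, the shMYC1 label lay nearer to Parental (median size 0.228) than to Resistant. Library 2 of the shMYC1 label was also less like the others. The chi-square per gene of 2 libraries' reads against sampling noise was 29.1 and 19.8 for the pairs with that library. It was 7.02 between libraries 1 and 3 of the shMYC1 label, and at most 8.05 in the other groups. An exact permutation test of 3 against 3 libraries cannot go below p = 0.1, so the tests given are from the model over all genes.

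**Figure D1:**
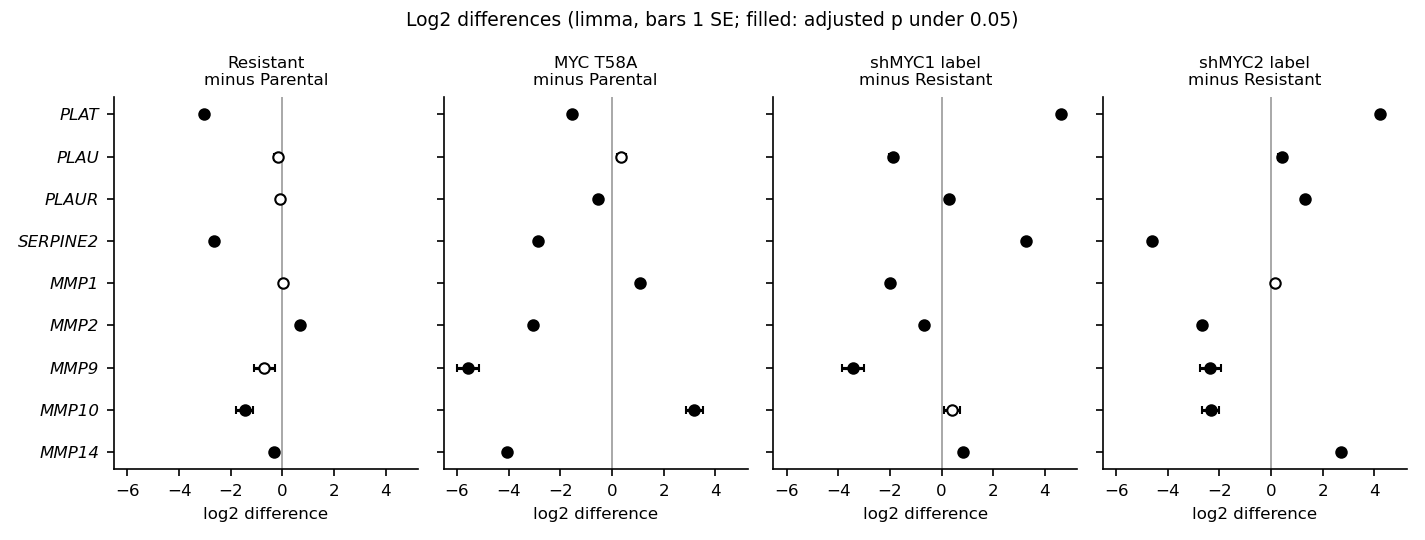
Log2 difference of each member in the 4 main comparisons (x axis, limma on log2(value + 1); bars are 1 SE; filled points passed an adjusted p under 0.05). PLAT lies at -3.03 in Resistant minus Parental and at 4.64 and 4.21 in the 2 hairpin labels minus Resistant, while SERPINE2 lies on opposite sides of 0 in the 2 labels.

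PLAT, the tissue-type activator on chromosome 8, fell in Resistant and MYC T58A cells and stood highest in both hairpin labels. Its 3 libraries had 522, 475 and 539 normalized reads in MYC T58A, 4678, 4560.5 and 4460.2 in the shMYC1 label, and 3325, 3623 and 3262 in the shMYC2 label. Resistant had 204, 152 and 196, against 1509, 1512 and 1488 in Parental. No 2 groups overlapped, and each neighbour in the order of the group means differed at an adjusted p of at most 0.000151 (limma). Resistant was 8.17-fold lower than Parental (log2 difference -3.03, SE 0.083, adjusted p = 7.05e-15), and MYC T58A was 2.94-fold lower (-1.55, adjusted p = 2.8e-11). Against Resistant, PLAT was 24.8-fold higher in the shMYC1 label (4.64, adjusted p = 1.31e-17) and 18.5-fold higher in the shMYC2 label (4.21, adjusted p = 4.24e-18). In bulk RNA, fewer cells that make a transcript and less of it per cell cannot be told apart.

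PLAU, which encodes urokinase, was low in every group and lowest in the shMYC1 label. It had 117, 145 and 102 normalized reads in MYC T58A, 21.9, 17.6 and 26.8 in the shMYC1 label, 117, 116 and 101 in the shMYC2 label, 77.9, 88.4 and 81.0 in Resistant and 94.5, 95.2 and 89.7 in Parental. The shMYC1 label stood below every other library, 3.73-fold lower than Resistant (log2 difference -1.87, adjusted p = 1.26e-08, limma). Among the other 4 groups no neighbours in the order of means passed the test, with adjusted p from 0.148 to 0.522 (limma), but the ends of that order did. MYC T58A was 1.48-fold higher than Resistant, with no overlap (log2 difference 0.54, adjusted p = 0.00555, limma). The shMYC2 label was 1.35-fold higher than Resistant (0.43, adjusted p = 0.019, limma), a call that was lost under total-count scaling (0.29, adjusted p = 0.101) and without Resistant library 1, shMYC2 library 1 or shMYC2 library 2 (adjusted p = 0.057, 0.0564 and 0.0517). MYC T58A against Parental gave 0.37 with an interval of 0.03 to 0.70 and an adjusted p of 0.051 (limma), and the adjusted p was 0.0161 with edgeR. Resistant against Parental gave -0.18, with an interval of -0.51 to 0.16.

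PLAUR, the receptor that binds urokinase, had the narrowest range of the members, 3.43-fold between its highest and lowest group means. It had 5052, 5460.1 and 5108 normalized reads in the shMYC2 label and 2432, 2816 and 2466 in the shMYC1 label, against 2132, 1964 and 2133 in Resistant. MYC T58A had 1471, 1534 and 1549, against 2256, 2203 and 2172 in Parental. The shMYC2 label was 2.51-fold higher than Resistant (log2 difference 1.33, adjusted p = 1.71e-13, limma) and the shMYC1 label 1.24-fold higher (0.31, adjusted p = 0.000144, limma). MYC T58A was 1.46-fold lower than Parental (-0.54, adjusted p = 1.52e-07, limma). Resistant and Parental did not pass the test, at -0.09 with an interval of -0.21 to 0.03 (adjusted p = 0.189, limma).

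Per kilobase of transcript, PLAT was above PLAU in every group, with 189 against 52.4 normalized reads per kb in MYC T58A and 1688 against 9.52 in the shMYC1 label, 1258 against 48.0 in the shMYC2 label, 68.0 against 35.5 in Resistant and 555 against 40.1 in Parental. The ratio of PLAT to PLAU was also taken in single libraries, with 1 added to each normalized value and no correction for length. It was 3.25 to 5.23 in MYC T58A, 161 to 245 in the shMYC1 label, 28.1 to 31.9 in the shMYC2 label, 1.72 to 2.60 in Resistant and 15.7 to 16.4 in Parental. The ranges of the 5 groups did not overlap.

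SERPINE2, the serpin that inhibits thrombin, urokinase and tissue-type activator, had the widest range of the members, 233-fold between group means. It had 5464, 5810.45 and 5959 normalized reads in MYC T58A, 63288, 66126 and 62216 in the shMYC1 label and 277, 259.7 and 285 in the shMYC2 label. Resistant had 6472, 6553 and 7021, against 40551, 43040.3 and 41685 in Parental. No groups overlapped, and the MYC T58A and Resistant libraries lay nearest to each other. Resistant was 6.25-fold lower than Parental (log2 difference -2.64, adjusted p = 4.96e-17, limma) and MYC T58A 7.27-fold lower (-2.86, adjusted p = 3.4e-18, limma). The hairpin labels lay on opposite sides of Resistant, at 9.56-fold higher in the shMYC1 label (3.26, adjusted p = 7.95e-19, limma) and 24.4-fold lower in the shMYC2 label (-4.60, adjusted p = 7.58e-22, limma).

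**Figure D2:**
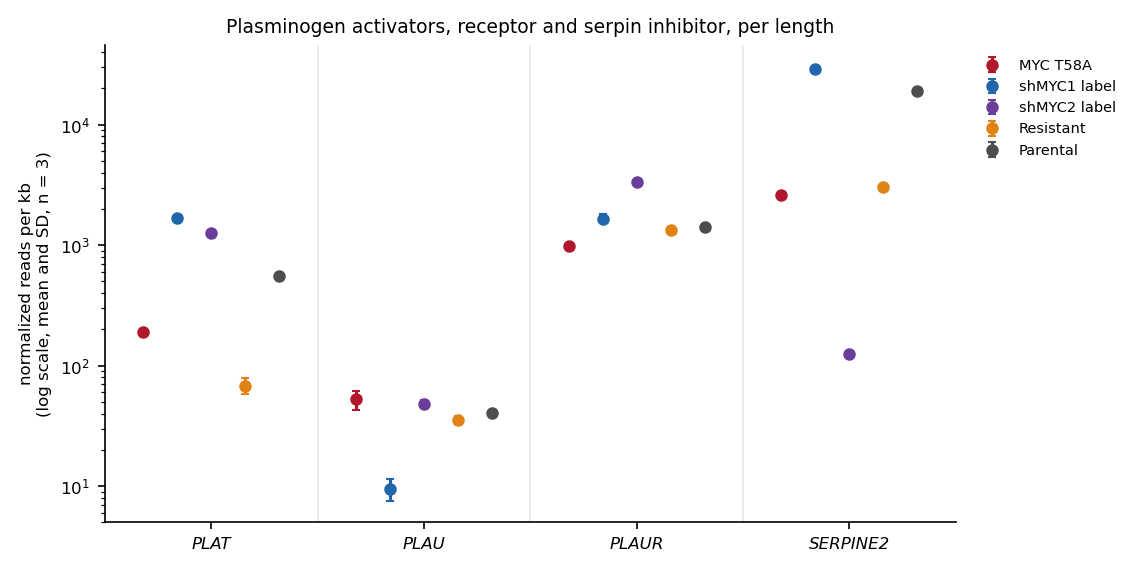
Normalized reads per kb of transcript (log scale, mean and SD of 3 libraries) of the activators PLAT and PLAU, the receptor PLAUR and the inhibitor SERPINE2 in the 5 groups. SERPINE2 ranges from 125 reads per kb in the shMYC2 label to 29100 in the shMYC1 label, and PLAT lies above PLAU in every group.

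Of 23 other genes of the plasminogen system, 17 were tested. In MYC T58A against Parental, 1 was higher and 13 lower, beside 30.1% and 33.7% of all genes. Those lower included the integrin subunit ITGB3, which can bind the receptor complex (59.4 against 1004 normalized reads, log2 difference -4.06, adjusted p = 4.09e-17, limma), and S100A10, the plasminogen receptor subunit that pairs with ANXA2 (5293 against 13759, -1.38, adjusted p = 1.5e-09, limma). SERPINA5, the protein C inhibitor, had 0.294 against 117 normalized reads there, 398-fold lower (64.6 to 14344 by counting error alone, adjusted p = 5.02e-12, limma). F12, coagulation factor XII, was the gene that rose (136 against 70.4, 0.95, adjusted p = 0.000319, limma). In Resistant against Parental, 7 were higher and 7 lower, beside 27.2% and 24.4% of all genes. LRP1, the endocytic receptor that clears activator and inhibitor complexes, rose (4214 against 1569, 1.41, adjusted p = 7.9e-09, limma), as did the integrin subunit ITGAV (7058 against 4012). SERPINA5 fell (3.85 against 117, -4.61, adjusted p = 1.12e-09, limma), and so did S100A10 (8398 against 13759, -0.72). In the shMYC1 label against Resistant, 7 rose and 7 fell, beside 27% and 30.1% of all genes. F12, S100A10 and ANXA2 rose there (1.23, 1.06 and 1.04) and LRP1 fell (-1.50). In the shMYC2 label against Resistant, 7 rose and 9 fell, beside 36.2% and 43%. SERPINI1, neuroserpin, rose there (223 against 20.8, 3.38, adjusted p = 5.42e-10, limma), and ITGB3, LRP1 and ITGAV fell (-3.59, -1.17 and -0.76). The median log2 difference of the 17 was -0.825 in MYC T58A, 0.0246 in Resistant, -0.244 in the shMYC1 label and -0.464 in the shMYC2 label, beside -0.0195, 0.00898, -0.0266 and -0.0755 over all tested genes.

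**Figure D3:**
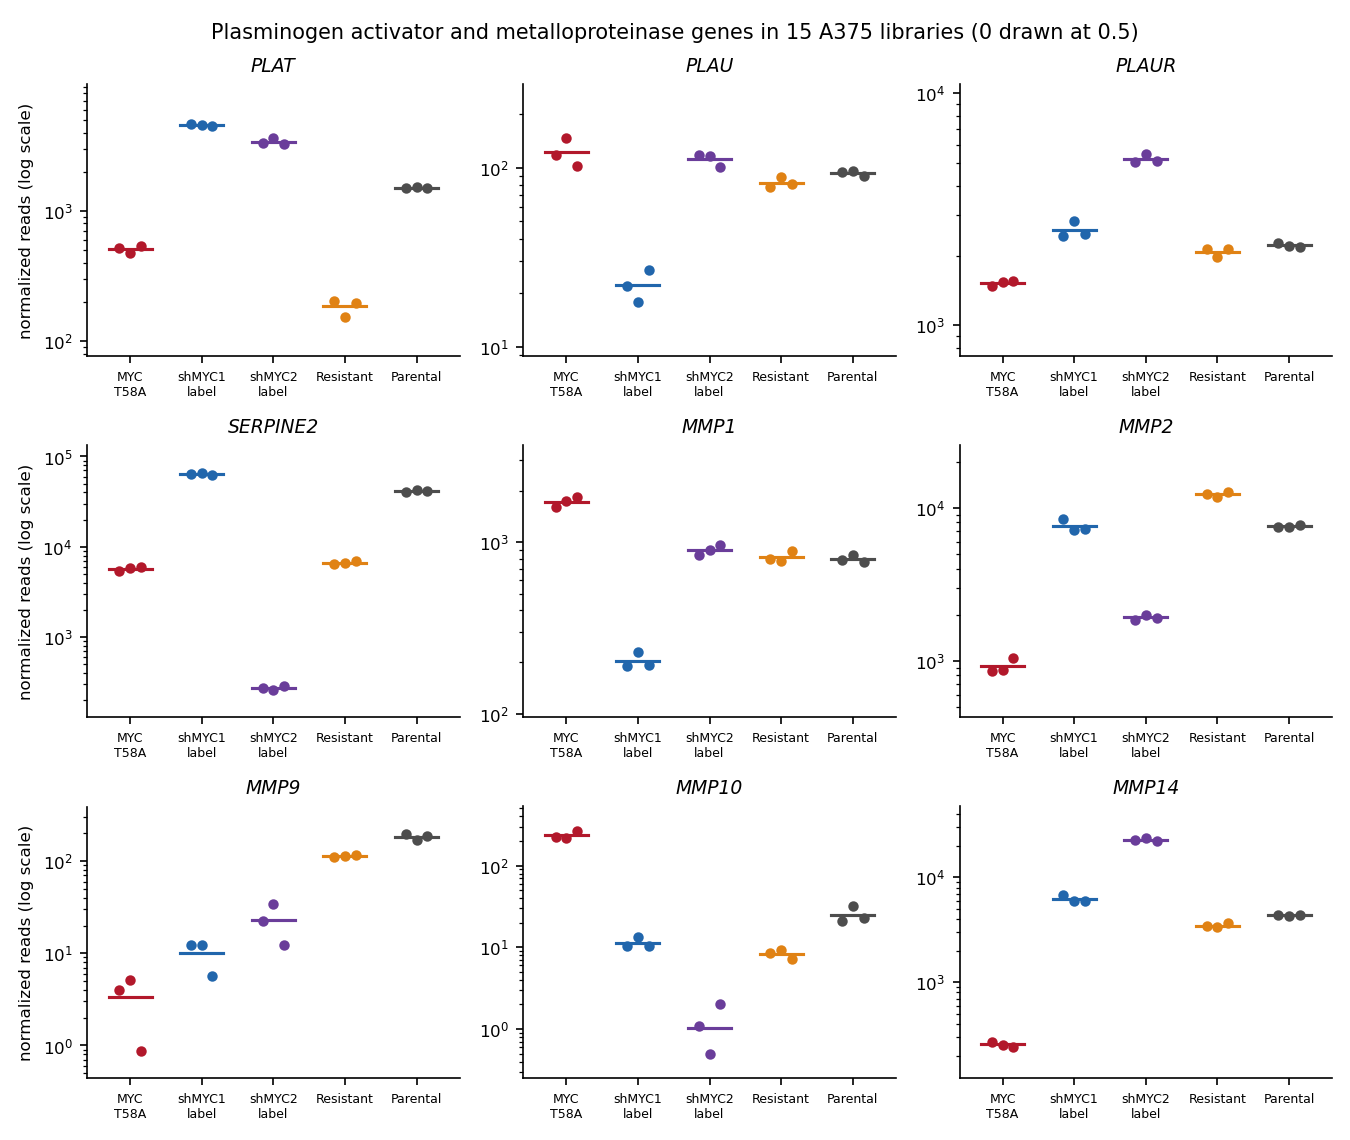
Normalized reads of the 9 members in each of the 15 libraries (log scale; points are libraries, bars are group means; 1 value of 0, for MMP10 in the shMYC2 label, is drawn at the foot of its panel). The vertical scale differs between panels. MMP14 sits between 243 and 270.5 in the MYC T58A libraries and between 22186 and 23669 in the 3 labelled shMYC2.

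MMP14, the membrane-anchored collagenase, fell in MYC T58A cells and stood highest in the shMYC2 label. It had 270.5, 254 and 243 normalized reads in MYC T58A, 6723, 5892 and 5973 in the shMYC1 label and 22555, 23669 and 22186 in the shMYC2 label. Resistant had 3445, 3332 and 3639.7, against 4356, 4293 and 4353 in Parental. None of the groups overlapped, and the range between group means was 89.0-fold. MYC T58A was 16.9-fold lower than Parental (log2 difference -4.08, SE 0.055, adjusted p = 1.07e-19, limma), and Resistant was 1.25-fold lower (-0.32, adjusted p = 8.48e-05, limma). The shMYC1 label was 1.78-fold higher than Resistant (0.83, adjusted p = 4.4e-10, limma) and the shMYC2 label 6.57-fold higher (2.72, adjusted p = 3.96e-18, limma).

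MMP2, the gelatinase that MMP14 activates, was highest in Resistant cells. It had 853, 869 and 1044 normalized reads in MYC T58A, 8496, 7155 and 7224 in the shMYC1 label and 1845, 1995 and 1909.9 in the shMYC2 label. Resistant had 12239.9, 11805 and 12745, against 7503, 7487 and 7739 in Parental. The shMYC1 label overlapped Parental and the 2 did not pass the test (log2 difference 0.00, interval -0.15 to 0.16, adjusted p = 0.971, limma). Resistant was 1.62-fold higher than Parental (0.69, adjusted p = 3.13e-07, limma), and MYC T58A was 8.22-fold lower than Parental (-3.04, adjusted p = 6.07e-16, limma). Against Resistant, MMP2 was 1.61-fold lower in the shMYC1 label (-0.69, adjusted p = 2.68e-07, limma) and 6.40-fold lower in the shMYC2 label (-2.68, adjusted p = 4.33e-16, limma).

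The shMYC2 label thus had the highest mean of MMP14, with MMP2 below Resistant, Parental and the shMYC1 label. MYC T58A had the lowest group mean of both genes. The ratio of MMP14 to MMP2 in single libraries was taken in the same way, with 1 added to each normalized value. It was 0.234 to 0.318 in MYC T58A, 0.791 to 0.827 in the shMYC1 label, 11.6 to 12.2 in the shMYC2 label, 0.282 to 0.286 in Resistant and 0.563 to 0.581 in Parental. Per kilobase, MMP2 was above MMP14 in MYC T58A (246 against 68.6), in the shMYC1 label (2038 against 1660), in Resistant (3278 against 930) and in Parental (2025 against 1161), and below it in the shMYC2 label (512 against 6110).

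TIMP2, the inhibitor that bridges MMP14 and the MMP2 zymogen, spanned a narrow range. It averaged 2960 ± 178 normalized reads in MYC T58A, 3942 ± 446 in the shMYC1 label, 5090 ± 134 in the shMYC2 label, 4822 ± 155 in Resistant and 2708 ± 99.8 in Parental (SD, n = 3 each), and Resistant was 1.78-fold higher than Parental (adjusted p = 7.22e-09, limma). TIMP3, the inhibitor that stays bound to the matrix, spanned the widest range of the 3 measured here. It had 537 to 545 normalized reads in MYC T58A, 27164 to 30128 in the shMYC1 label, 13.6 to 39.9 in the shMYC2 label, 1393 to 1464 in Resistant and 9267 to 9835 in Parental. TIMP1, a secreted inhibitor, fell 2.14-fold in Resistant (1980 against 4232 in Parental, log2 difference -1.10, adjusted p = 2.61e-10, limma) and was 2.58-fold higher in the shMYC1 label than in Resistant (5117 against 1980, 1.37, adjusted p = 8.04e-12, limma). RECK, a membrane-anchored inhibitor of MMP2, MMP9 and MMP14, rose 2.07-fold in Resistant against Parental (409 against 197, 1.05, adjusted p = 4.02e-09, limma). TFPI2, a secreted serine protease inhibitor, fell in MYC T58A and in Resistant (717 and 715 against 1635 in Parental, log2 difference -1.19 in both, adjusted p = 2.52e-10 and 4.1e-10, limma), and fell again in both hairpin labels against Resistant (-0.36 in the shMYC1 label and -1.29 in the shMYC2 label). Of the 13 inhibitors and cofactors, 11 were tested. In MYC T58A 1 rose and 6 fell, where 30.1% of all genes rose and 33.7% fell, and the proprotein convertase FURIN was among those that fell (-0.81) while RECK rose (0.47). In Resistant 3 rose and 5 fell, where 27.2% rose and 24.4% fell. In the shMYC1 label 6 rose and 3 fell, where 27% rose and 30.1% fell. The caveolar protein CAV1 rose there (0.97) and RECK fell (-0.97). In the shMYC2 label 4 rose and 5 fell, where 36.2% rose and 43% fell. BSG, the metalloproteinase inducer basigin, and TIMP1 rose there (0.69 and 0.43), and the proprotein convertase PCSK7 fell (1064 against 1664 normalized reads).

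**Figure D4:**
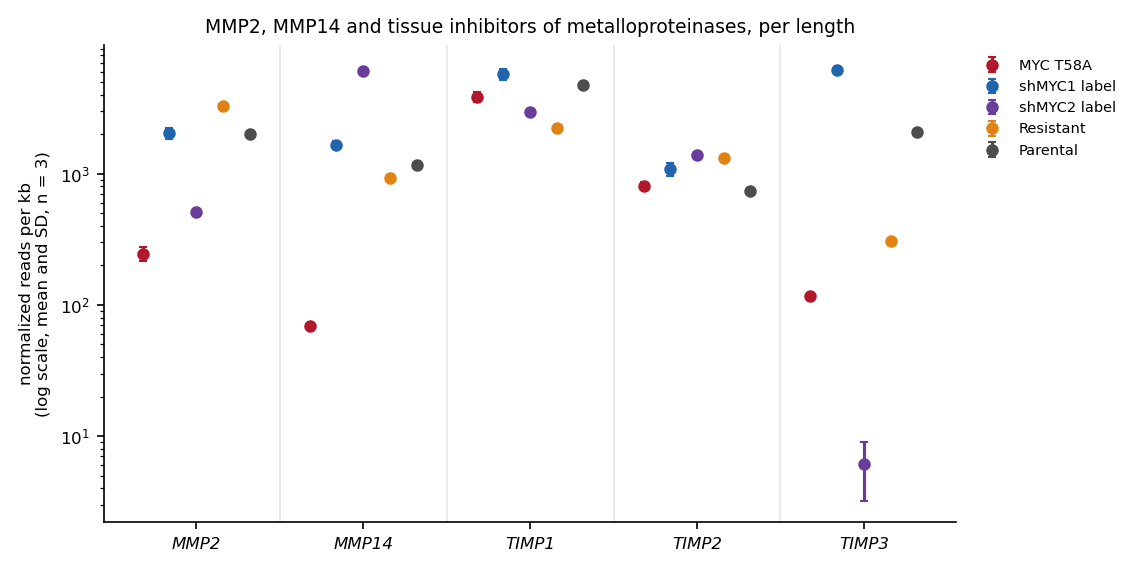
Normalized reads per kb of transcript (log scale, mean and SD of 3 libraries) of MMP2, MMP14 and the inhibitors TIMP1, TIMP2 and TIMP3 in the 5 groups. MMP2 is above MMP14 in 4 groups and below it in the shMYC2 label (512 against 6110), and TIMP3 lies at 6.13 there.

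MMP9, the second gelatinase, had few reads in 3 of the groups and was highest in Parental. It had 4.01, 5.19 and 0.881 normalized reads in MYC T58A, 12.4, 12.3 and 5.74 in the shMYC1 label, 22.6, 34.4 and 12.3 in the shMYC2 label, 111, 114 and 116 in Resistant and 195, 170.0 and 188 in Parental. Parental and Resistant stood well above the other 3 groups and did not overlap with each other. MYC T58A was 54.9-fold lower than Parental (log2 difference -5.58, SE 0.41, adjusted p = 6.46e-09, limma), on 10 reads in its 3 libraries together. The shMYC1 label was 11.2-fold lower than Resistant (-3.43, adjusted p = 2.46e-06, limma) and the shMYC2 label 4.91-fold lower (-2.36, adjusted p = 6.25e-05, limma). Resistant against Parental gave -0.69 with an interval of -1.57 to 0.18 and did not pass (adjusted p = 0.173, limma), whereas edgeR gave an adjusted p of 0.000631 and DESeq2 one of 0.000571. The limma interval uses a spread pooled over all 5 groups, including the 3 with few reads. Within the 2 groups compared, the SD was 2.33 normalized reads in Resistant and 12.9 in Parental.

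MMP1, the interstitial collagenase, and MMP10, a stromelysin, lie close to each other on the minus strand of chromosome 11 (chr11:102789920-102798160 and chr11:102770503-102780628, GRCh38, GENCODE v29), in a cluster of metalloproteinase genes. They were the members that rose in MYC T58A. MMP1 had 1604, 1727 and 1831 normalized reads in MYC T58A, 190.3, 230.2 and 191 in the shMYC1 label and 842, 899 and 968 in the shMYC2 label. Resistant had 800.4, 781 and 888, against 783, 845 and 769 in Parental. The MYC T58A libraries lay above all others and the shMYC1 label below all others, while the other 3 groups overlapped. MYC T58A was 2.15-fold higher than Parental (log2 difference 1.10, adjusted p = 1.52e-09, limma), and the shMYC1 label 4.04-fold lower than Resistant (-2.01, adjusted p = 5.07e-13, limma). Resistant against Parental gave 0.04, with an interval of -0.13 to 0.21, and the shMYC2 label against Resistant gave 0.13, with an interval of -0.04 to 0.30. Neither passed the test, and the shMYC2 value was -0.01 under total-count scaling.

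MMP10 had 226, 216 and 264 normalized reads in MYC T58A, 10.5, 13.2 and 10.5 in the shMYC1 label and 1.08, 0 and 2.05 in the shMYC2 label. Resistant had 8.54, 9.40 and 7.28, against 20.8, 31.7 and 23.0 in Parental. MYC T58A was far above every other group, and the shMYC2 label held 3 reads in all. MYC T58A was 9.37-fold higher than Parental (log2 difference 3.19, SE 0.32, adjusted p = 9.83e-08, limma), and Resistant was 2.99-fold lower than Parental (-1.46, SE 0.32, adjusted p = 0.000907, limma), a call lost with a pseudocount of 0.1 (adjusted p = 0.118). The shMYC2 label was 8.08-fold lower than Resistant by the ratio of means, with an exact 95% counting interval of 2.46 to 41.4 (-2.34, adjusted p = 2.4e-06, limma). After quantile normalization, which moved the median of all genes by 0.228 in this comparison, the difference was -0.12 (adjusted p = 0.744). The shMYC1 label against Resistant gave 0.40, with an interval of -0.28 to 1.07.

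Neighbours in the cluster did not share one order over the groups. MMP3, another stromelysin, had 289 ± 3.11 normalized reads in MYC T58A, 68.5 ± 11.6 in the shMYC1 label, 21.0 ± 3.01 in the shMYC2 label, 1737 ± 137 in Resistant and 301 ± 11.2 in Parental (SD, n = 3 each). MMP13, the third collagenase, had 19.7 ± 8.73 in MYC T58A, 11.1 ± 4.91 in the shMYC1 label, 0.359 ± 0.622 in the shMYC2 label, 434 ± 7.53 in Resistant and 73.1 ± 11.8 in Parental (SD, n = 3 each). Both were thus highest in Resistant, 5.77-fold and 5.94-fold above Parental (adjusted p = 1.11e-11 and 1.57e-05, limma). MMP8, the neutrophil collagenase, was highest in the shMYC1 label at 162 ± 11.3, against 1.63 ± 0.619 in Resistant. WTAPP1, a pseudogene on the opposite strand that overlaps both MMP1 and MMP10, averaged 16.3 normalized reads in MYC T58A, 2.18 in the shMYC1 label, 9.79 in the shMYC2 label, 7.89 in Resistant and 5.18 in Parental. No source used here gives the strand that was counted.

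**Figure D5:**
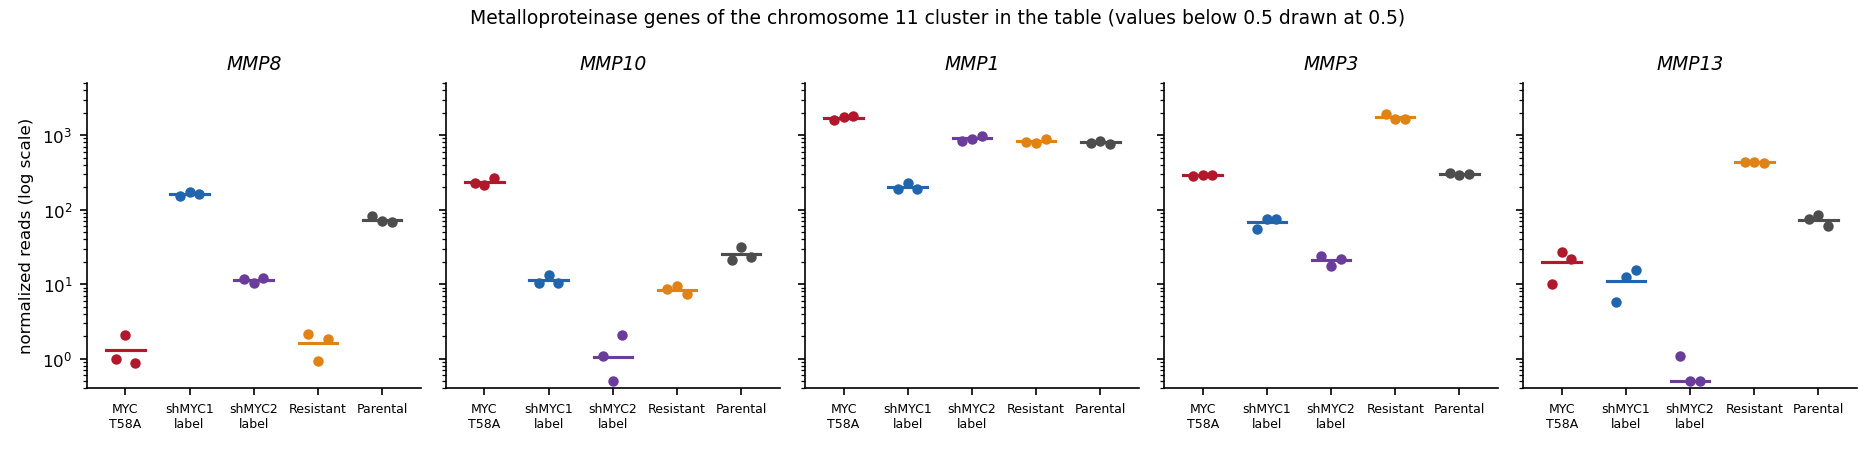
Normalized reads of MMP8, MMP10, MMP1, MMP3 and MMP13, the chromosome 11 metalloproteinase genes in the table, in each of the 15 libraries (log scale; bars are group means; the lowest values are drawn at the foot of the panel). MMP10 and MMP1 are highest in MYC T58A, MMP3 and MMP13 in Resistant, and MMP8 in the shMYC1 label.

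Of the 18 other metalloproteinase genes, 9 were tested. In MYC T58A against Parental, 1 rose and 5 fell, beside 30.1% and 33.7% of all genes. MMP17, a membrane-anchored member, was the gene that rose (61.3 against 36.9 normalized reads, adjusted p = 0.00444, limma). MMP13 and the membrane-type MMP16 fell (19.7 against 73.1 and 3097 against 5722, log2 difference -1.93 and -0.89, adjusted p = 0.000205 and 3.49e-11, limma). MMP8 had 1.32 against 73.5, 55.7-fold lower (21.9 to 211 by counting error alone, adjusted p = 9.51e-12, limma). In Resistant against Parental, 4 rose and 3 fell, beside 27.2% and 24.4% of all genes. MMP24, another membrane-type member, was among those that rose (139 against 32.0, adjusted p = 3.7e-07, limma). MMP8 and the membrane-type MMP15 were among those that fell (1.63 against 73.5 and 97.3 against 165, adjusted p = 3.19e-11 and 0.000267, limma). In the shMYC1 label against Resistant 4 rose and 4 fell, beside 27% and 30.1%. MMP15 rose there (690 against 97.3, log2 difference 2.81, adjusted p = 1.89e-11, limma), as did MMP17 (0.80), while MMP13 and MMP3 fell (-5.26 and -4.66). In the shMYC2 label against Resistant 3 rose and 6 fell, beside 36.2% and 43%. MMP17 and MMP16 rose there, with 296 against 37.0 and 10432 against 4794 normalized reads (2.96 and 1.12, adjusted p = 6.03e-10 and 2.63e-13, limma). MMP3 fell (-6.31), and MMP19 had 0.700 against 56.8 normalized reads, 81.1-fold lower (22.2 to 677 by counting error alone).

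Transcription factors of the AP-1 and ETS families, which are known to act on metalloproteinase and urokinase promoters, moved in both directions. All 12 on the list were tested. In MYC T58A against Parental 2 rose and 6 fell, beside 30.1% and 33.7% of all genes. The 2 that rose were JUND, a JUN-family subunit (1754 against 857 normalized reads, log2 difference 1.02, adjusted p = 0.000794, limma), and ETS2 (802 against 677, 0.24, adjusted p = 0.000637, limma). FOSL1, a FOS-family subunit, fell (7099 against 9174, -0.37, adjusted p = 0.000901, limma), as did ETS1 (3756 against 5824, -0.63, adjusted p = 3.07e-10, limma), ETV1 (-0.54) and JUN (1515 against 1917, -0.34, adjusted p = 0.000182, limma). In Resistant against Parental 4 rose and 4 fell, beside 27.2% and 24.4%. FOSL2, JUND and ETS2 rose (1.11, 1.07 and 0.72), and FOS and ETV4 fell (-2.25 and -1.32). In the shMYC1 label against Resistant 7 rose and 2 fell, beside 27% and 30.1%. FOS, FOSB and FOSL1 rose (1.88, 1.29 and 0.99), FOSL1 to 16807 normalized reads against 8499 in Resistant, and FOSL2 and ETS2 fell (-1.56 and -0.72). In the shMYC2 label against Resistant 6 rose and 6 fell, beside 36.2% and 43%. JUN rose there (12100 against 1956, 2.63, adjusted p = 6.49e-17, limma), as did ETV5 and ETS1 (1.18 and 1.02), and JUND and FOSB fell (-1.92 and -1.14). Whether these factors act on the members was not tested.

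The genes closest to each member were found by the root mean square difference between centred log2 group means over the 5 groups, among 13579 genes. For MMP1 the closest included PLAU (0.291, behind TMEM156 at 0.273), and MMP1 was in turn second for PLAU, behind TTC28 (0.267). For SERPINE2 they were MYH14 (0.201), SH2D1B (0.262) and HR (0.302), and for MMP2 they were CCDC149 (0.222), DYNC1I1 (0.265) and FBXO6 (0.293). MMP10 lay nearest to SERPINB5 (0.359), KCND3 (0.444) and PTPN6 (0.485), and MMP14 to RP11-774D14.1 (0.398), PTPN22 (0.41) and EPS8L1 (0.488). PLAT lay nearest to CTC-529P8.1 (0.335), FAM78B (0.476) and KDR (0.636), and MMP9, whose nearest was PAPPA (0.591), had the loosest matches. PLAUR had too narrow a range for this measure.

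The genes around each member on its chromosome were read in the same comparisons. For each member these were 25 tested genes on each side, 50 in all. MMP1 and MMP10 lie close together, so their sets are not separate. The median log2 difference of a member's set lay between -0.569 and 0.111 in MYC T58A against Parental, and between -0.328 and 0.216 in Resistant against Parental. It lay between -0.315 and 0.226 in the shMYC1 label against Resistant and between -0.446 and 0.542 in the shMYC2 label. For PLAU in the shMYC2 label, the neighbours' median of 0.457 was close to the gene's own 0.43, and for PLAT there it was 0.542, beside 4.21 for the gene.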

How the data were processed

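A Kapa kit for stranded mRNA was used to build the libraries, per the labels' protocols, and the submitters' processing notes list STAR and HTSeq, DESeq2, Trim Galore and cutadapt. No source used here gives versions, the genome build, the annotation or the strand setting. The deposited signal values proved, from the values themselves, to be read counts scaled by 1 size factor per library: each column was whole multiples of a single step (0.881 to 1.08), for 100% of values within a tolerance of 0.01. No gene of the table has a highest read count under 10.

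The fit used the 17012 of 18322 genes that reach 10 normalized reads in 3 or more libraries. Log2(value + 1) was fitted with limma 3.58.1 (trend, robust; R 4.3.3) over all 15 libraries with a mean per group, and two-sided p-values were adjusted by Benjamini-Hochberg over all tested genes, with calls at an adjusted p under 0.05. This scale understates differences of genes with few reads, while folds are ratios of means. Intervals of differences are 95% confidence intervals. P-values measure only the spread between the 3 libraries within a group, pooled for each gene over all 5 groups. A test of 2 groups thus also depends on the spread in the other groups. The clonal origin of Resistant leaves no variation between resistant populations. Counting intervals cover counting error only. The plan allowed for raw counts; as the values were normalized, limma was the main test, with edgeR 4.0.16 and DESeq2 1.42.0 on the recovered reads as alternatives. The fit was tested on simulated data. Columns carry a group but no replicate number of the labels, so libraries are numbered in column order.

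Levels per kb use the longest principal transcript in GENCODE v29 (GRCh38), which also gave positions and the order of genes. The 9 members and all lists (other plasminogen system genes, other metalloproteinases, inhibitors and cofactors, ADAM and ADAMTS proteases, AP-1 and ETS factors, and markers of melanocytes, fibroblasts, endothelial cells, keratinocytes and immune cells) were chosen with earlier results of these data known. From each list of proteases, inhibitors and factors, up to 3 called genes with the largest change in the commoner direction are named. Up to 2 are named in the other direction, all with a mean of at least 50 normalized reads in the higher group. TIMPs, RECK and some factors are given besides, though not for every comparison in which they were called. Marker lists are given as counts with a few examples. One gene of the plasminogen list is counted there but not reported here by name. Likeness was computed for members whose group means differ by at least 2 on the log2 scale. Alternatives were other pseudocounts, filters, scalings, tests, thresholds and sets of libraries.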

Additional observations from a re-analysis of the deposited data

How the results depend on the processing

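Over the 36 pairs of member and main comparison, 639 values were computed under alternatives, of which 617 kept both direction and side of the threshold, 7 lost a call, 13 gained one and 2 changed sign. Both sign changes were for MMP1, with -0.014 in Resistant against Parental without Resistant library 3 (0.083 without Parental library 2, the highest of these values) and -0.012 in the shMYC2 label against Resistant under total-count scaling; neither was called. The calls that changed were of PLAU in MYC T58A against Parental and in the shMYC2 label against Resistant, MMP9 and MMP10 in Resistant against Parental, and MMP10 in both hairpin labels, where quantile normalization gave 0.91 (adjusted p = 0.0251, limma) for the shMYC1 label; the cause was not tested. Total-count scaling moved the median of all genes by -0.143 in the shMYC2 label against Resistant. Leaving out each library in turn gave 5 members called each time in Resistant against Parental, 8 to 9 in MYC T58A against Parental, 8 each time in the shMYC1 label and 7 to 8 in the shMYC2 label against Resistant. Genes called over the whole table were then 7864 to 8405, 10064 to 10305, 8925 to 9640 and 13046 to 13179, beside 8781, 10862, 9713 and 13474 with all libraries. No paired analysis was possible because the table's columns carry no replicate number of the labels. Depth limits MMP9 in MYC T58A and MMP10 in the shMYC2 label, which rest on 10 and 3 reads.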

Other observations

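ADAM and ADAMTS proteases, the disintegrin metalloproteinases that shed membrane proteins and cleave proteoglycans, were tested for 23 of 27 genes. In MYC T58A against Parental 2 rose and 17 fell, where 30.1% of all tested genes rose and 33.7% fell, and the median log2 difference was -1.04, beside -0.0195 over all genes. ADAMTS9, an aggrecan- and versican-cleaving protease, averaged 5.19 normalized reads in MYC T58A against 119 in Parental (log2 difference -4.30, adjusted p = 2.69e-13, limma), ADAM12 averaged 40.9 against 484 (-3.53, adjusted p = 3.87e-15, limma) and ADAM19 averaged 499 against 5629 (-3.50, adjusted p = 9.14e-14, limma). ADAMTS17 and ADAM17 were the 2 that rose (1.23 and 0.10). In Resistant against Parental 7 rose and 8 fell, where 27.2% of all genes rose and 24.4% fell. ADAM28 and ADAMTS9 rose (84.6 against 10.7 and 397 against 119, 2.85 and 1.73, adjusted p = 2.2e-06 and 8.89e-08, limma). ADAM19 fell (1531 against 5629, -1.88, adjusted p = 2.67e-10, limma), as did ADAMTS17 and ADAMTS16 (-1.55 and -1.29). In the libraries labelled shMYC1 against Resistant 7 rose and 11 fell, where 27% and 30.1% of all genes did. ADAMTS17 rose there (2.05), ADAM12 and ADAMTS5 fell (-2.56 and -1.70), and ADAM28 had 1.88 against 84.6, 44.9-fold lower (20.7 to 126 by counting error alone). In those labelled shMYC2 7 rose and 13 fell, where 36.2% and 43% of all genes did. ADAM19 rose in both labels, to 5589 in the shMYC1 label and 12085 in the shMYC2 label, against 1531 in Resistant (1.86 and 2.98, adjusted p = 1.98e-10 and 1.05e-13, limma), and ADAMTS6 rose in the shMYC2 label (2617 against 267, 3.29, adjusted p = 4.7e-16, limma). ADAMTS15 and ADAMTS7 were at 0 in all 3 libraries labelled shMYC2 and at 273 and 83.3 in Resistant, at least 86.7-fold and 26.5-fold lower on a floor of 3 reads per library. ADAMTS4 had 0.359 there against 65.7 in Resistant, 183-fold lower (33.1 to 7412 by counting error alone).

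Marker lists of the labelled and of other cell types were read for the same comparisons, in which the shares of all genes that rose and fell were those given above. Of 9 melanocyte markers tested, 3 rose and 6 fell in MYC T58A, 3 rose and 3 fell in Resistant, 3 rose and 2 fell in the shMYC1 label, and 2 rose and 5 fell in the shMYC2 label. Of 11 fibroblast markers, 5 rose and 4 fell, 6 rose and 2 fell, 1 rose and 8 fell, and 2 rose and 6 fell in the same order of comparisons. LUM, a matrix proteoglycan on that list, averaged 3051 normalized reads in Resistant against 199 in Parental. Of 4 endothelial markers tested, none rose and 4 fell in MYC T58A, 1 rose and 2 fell in Resistant, 2 rose and 1 fell in the shMYC1 label, and 1 rose and 2 fell in the shMYC2 label. Keratinocyte markers (4 tested) gave 0 higher and 2 lower, 0 and 1, 2 and 1, and 0 and 1, and immune markers (3 tested) gave 0 higher and 2 lower, 2 and 1, 1 and 2, and 0 and 3, in that order. Over all 15 libraries the summed level was 29.1 to 195 for 5 endothelial markers, 782 to 2123 for 4 keratinocyte markers and 30.1 to 359 for 3 immune markers. Most of the keratinocyte sum in every group was KRT10, with group means from 856 in Parental to 1350 in the shMYC1 label. KRT14 averaged 441 in the shMYC1 label and 98.0 in Parental, and at most 2.53 in the other groups. Group means were at most 33.8 for KRT5 and 11.8 for EPCAM.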
